A study of Rattus norvegicus with 6 samples.

Results

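Cell-cycle and proliferation genes were followed as 6 rat genes, chosen by Ensembl identifier: Mki67 (ENSRNOG00000028137), Cdk1 (ENSRNOG00000000632), Ccnb1 (ENSRNOG00000058539), Ccna2 (ENSRNOG00000015423), Pcna (ENSRNOG00000021264) and Ccnd1 (ENSRNOG00000020918). All 6 are among the 33884 genes of the count table, and all 6 had enough reads to be tested, as did 12756 genes in all. Their transcripts were counted by RNA-seq in macrophages that had been sorted as CD45+HIS36+ cells out of digested infarcted hearts of Sprague Dawley rats, 72 h after myocardial infarction (MI). CD45 marks leukocytes, and HIS36 is an antibody against rat macrophages. There were 3 WT and 3 Dusp6-/- libraries, and both genotypes had undergone MI by permanent ligation of the left anterior descending coronary artery, with no uninfarcted libraries to compare. The Dusp6-/- rats carry an inserted adenine in exon 1 of Dusp6 with a premature stop codon, in every cell of the animal, so the macrophages were not the sole cells without the phosphatase. All rats were male and 8 to 10 weeks old according to the methods of the study. The labels do not say how many rats gave each library, so p-values measure the spread between libraries, which may be technical. The table pairs no identifier with a symbol, and the level of Dusp6 and markers of macrophages or of other cell types in the gate were not analysed here.

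These genes serve successive steps of cell division. Ccnd1 encodes cyclin D1, which growth-factor signals through ERK induce in G1 and which activates CDK4 and CDK6. Pcna encodes the sliding clamp that holds DNA polymerases on the template during S phase. Ccna2 encodes cyclin A2, which acts in S and G2 phase, and Ccnb1 encodes cyclin B1, which binds the kinase encoded by Cdk1 to drive entry into mitosis. Mki67 encodes Ki-67, a chromosome-coating protein present in cycling cells and lost in quiescent ones. Cardiac macrophages after MI derive largely from recruited monocytes, and some of them divide in the tissue. DUSP6 is a phosphatase that removes the activating phosphates of ERK1/2.

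Promoters are shown for those of the 6 genes that had a window, because genes of late cell cycle are known to share short promoter elements. RefSeq's windows on the build GRCr8, from 250 bases before to 50 bases after a transcription start, were given for 4 of the 6 genes, and Ccna2 and Ccnd1 had no entry. The reads themselves had been aligned to an older build, rn6. Capitals mark matches, on either strand, to the cell cycle homology region (CHR, TTTGAA), the CCAAT box (CCAAT) and an E2F-type sequence (TTTNNCGC).
Mki67, chr1:199952544-199952843, minus strand: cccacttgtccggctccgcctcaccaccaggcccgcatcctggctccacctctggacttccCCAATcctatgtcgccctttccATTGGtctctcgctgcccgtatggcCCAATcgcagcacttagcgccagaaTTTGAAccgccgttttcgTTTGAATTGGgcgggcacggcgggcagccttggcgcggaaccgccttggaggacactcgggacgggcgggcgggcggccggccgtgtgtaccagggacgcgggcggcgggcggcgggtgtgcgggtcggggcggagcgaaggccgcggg
Cdk1, chr20:19265043-19265342, plus strand: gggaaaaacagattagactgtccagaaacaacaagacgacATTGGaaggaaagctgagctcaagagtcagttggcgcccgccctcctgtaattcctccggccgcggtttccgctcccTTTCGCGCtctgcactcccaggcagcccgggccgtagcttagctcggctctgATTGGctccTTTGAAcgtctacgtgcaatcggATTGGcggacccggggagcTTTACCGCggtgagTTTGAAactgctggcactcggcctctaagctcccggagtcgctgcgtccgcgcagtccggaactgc
Ccnb1, chr2:33655176-33655475, minus strand: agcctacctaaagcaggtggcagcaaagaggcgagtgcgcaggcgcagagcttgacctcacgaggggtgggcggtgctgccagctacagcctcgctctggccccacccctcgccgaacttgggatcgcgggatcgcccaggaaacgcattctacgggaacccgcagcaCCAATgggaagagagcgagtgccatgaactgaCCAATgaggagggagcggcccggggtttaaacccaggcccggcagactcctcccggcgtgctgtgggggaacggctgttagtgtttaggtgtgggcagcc
Pcna, chr3:139955771-139956070, minus strand: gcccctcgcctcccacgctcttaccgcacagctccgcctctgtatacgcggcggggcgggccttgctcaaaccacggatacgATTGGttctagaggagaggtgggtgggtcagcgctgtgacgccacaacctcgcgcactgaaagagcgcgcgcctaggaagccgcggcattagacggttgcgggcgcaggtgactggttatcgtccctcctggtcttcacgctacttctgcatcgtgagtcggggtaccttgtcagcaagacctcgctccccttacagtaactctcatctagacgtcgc
The windows of Mki67 and Cdk1 held TTTGAA 2 times each, and those of Ccnb1 and Pcna held no match. Among 33469 rat promoter windows of the same length, 18.4% held this motif. CCAAT was matched 4 times in Mki67, 3 times in Cdk1, 2 times in Ccnb1 and 1 time in Pcna, against a share of 37.5% of all windows with any match. In Mki67, 1 TTTGAA and 1 reverse CCAAT overlap and form a single capital run. TTTNNCGC was matched 2 times in Cdk1 and in none of the other three, and 4.92% of all windows held it. The windows start from 1 transcript of each gene, which for Mki67 begins 254 bases and for Cdk1 41 bases inside the outermost annotated start. A match is a string of letters and no evidence of binding, and no match says only that these letters are absent from the window.

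**Figure D1:**
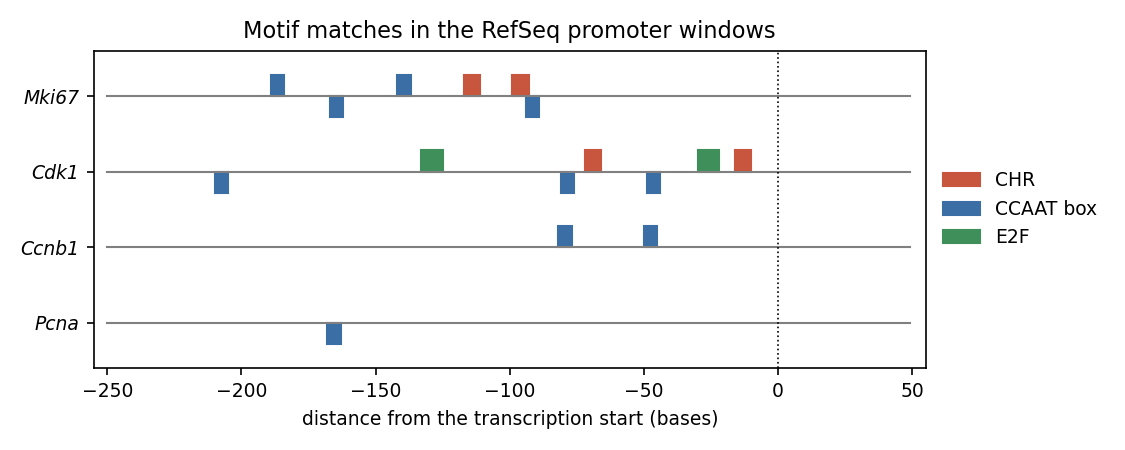
Positions of motif matches in the 4 promoter windows, with the distance from the transcription start in bases on the x axis and 1 line per gene. Boxes above a line are matches on the gene's strand and boxes below it are reverse matches. Cdk1 carries all 3 kinds of match, whereas Ccnb1 and Pcna carry CCAAT boxes alone.

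Library totals ranged from 12089585 to 17274938 counts. Between 3763 and 8137 of these reads fell on the 6 genes. The counts of single genes ran from 165 for Ccna2 in WT replicate 1 to 3341 for Pcna in Dusp6-/- replicate 2, so that counting error alone was between 1.73% and 7.78% of a value. Levels are given as CPM, counts relative to a library size that was scaled by the TMM method. The factors were 1.05 to 1.14 in WT and 0.874 to 1.01 in Dusp6-/-. They did not overlap between the genotypes, so this scaling raised Dusp6-/- levels relative to WT levels. Levels are not divided by gene length and are compared within a gene only. In a principal component analysis of all genes tested, Dusp6-/- replicate 1 stood apart. Its score on the first component, which held 49.2% of the variance, was 4.48, against 65.0 and 53.5 for the other Dusp6-/- libraries and -49.7 to -35.9 for WT. Results are therefore also given without it.

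All 6 genes had a higher mean in Dusp6-deficient than in WT macrophages, and none of them met the criteria for a changed gene. Of all genes tested, 51.4% had a fold change above 1. The criteria were those of the study, namely an adjusted p under 0.05 together with a change of more than 1 on the log2 scale. The study applied them to DESeq2. Here they were applied to edgeR's quasi-likelihood test, with p adjusted by the method of Benjamini and Hochberg over all 12756 genes. Of all genes tested, 3.47% were called higher and 2.16% lower in Dusp6-/-, against 0 of the 6 genes in either direction. On the adjusted p alone, 5.55% of all genes were higher, against 0 of the 6. At an unadjusted p under 0.05, 4 of the 6 genes were higher, where 16.5% of all genes tested were. That count moved with single libraries and with the scaling. It was 1 without WT replicate 1 and 2 without WT replicate 2 or any one of the Dusp6-/- libraries, against 4 without WT replicate 3. It was 3 with upper-quartile normalization and 1 with unscaled library totals. With DESeq2, 0 of the 6 genes passed both criteria, where 5.11% of genes did so as higher. The median log2 fold change was 0.72 for the 6 genes and 0.02 for all genes tested. In these bulk libraries, more cycling cells and more transcript per cell cannot be told apart. For 3 of the 6 genes, Pcna, Cdk1 and Ccnb1, every Dusp6-/- library was above every WT library, and the same held in that direction for 17.8% of all genes tested. This separation depended on the scaling for Cdk1 and Ccnb1. On unscaled library totals it held for 1 of the 6 genes, Pcna, and for 11.5% of all genes tested.

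**Figure D2:**
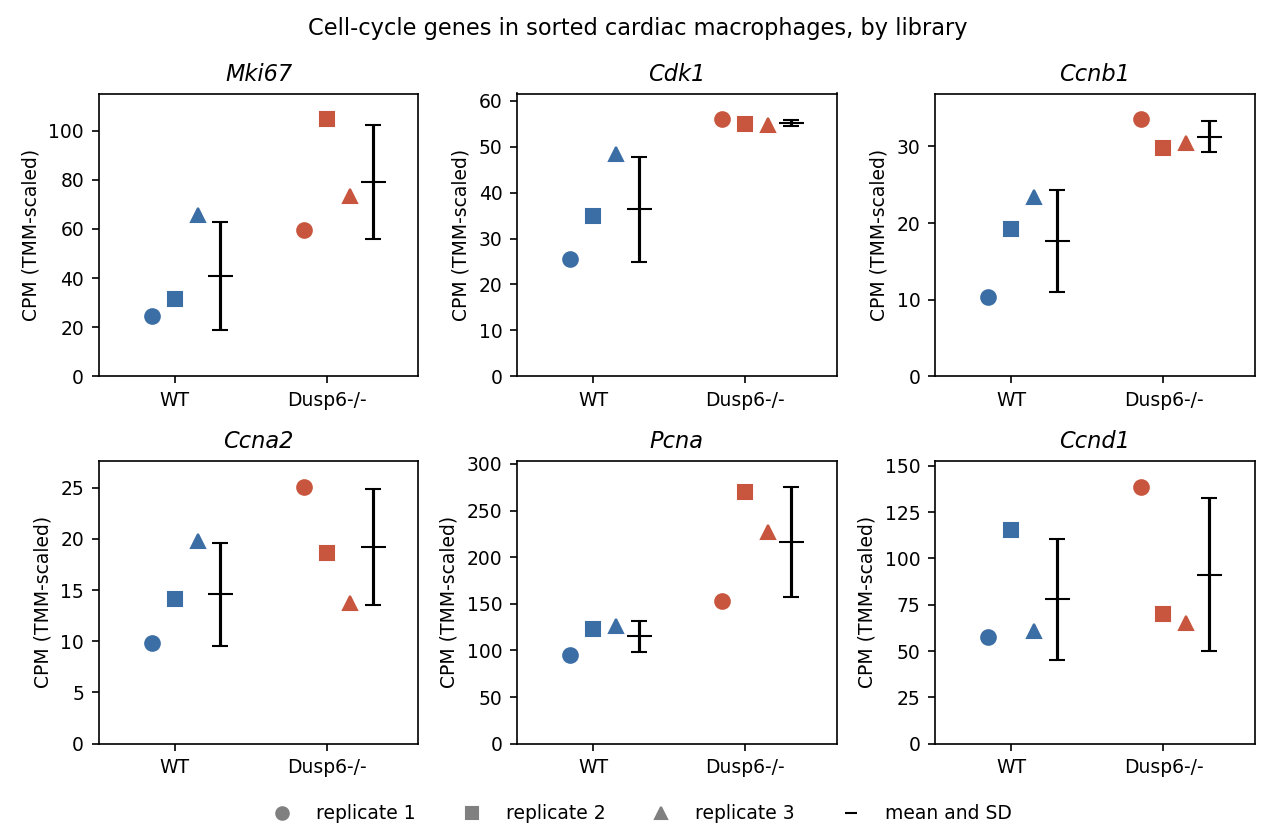
TMM-scaled CPM of the 6 genes on y axes that start at 0, in WT (blue) and Dusp6-/- (red) libraries, with 1 point per library, the replicate as the marker shape, and the mean and SD (n = 3) as a black bar. With this scaling the 3 Dusp6-/- libraries lie above every WT library for Cdk1, Ccnb1 and Pcna (with unscaled totals for Pcna alone), and the groups overlap for Mki67, Ccna2 and Ccnd1.

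Pcna, the replication clamp, came closest to the criteria. Its CPM was 95.6, 123.0 and 126.3 in WT replicates 1, 2 and 3. In Dusp6-/- replicates 1, 2 and 3 it was 153.2, 269.7 and 227.0. Every Dusp6-/- library was thus above every WT library, with replicate 1 the nearest to WT. The means were 114.9 ± 16.9 CPM in WT and 216.6 ± 58.9 CPM in Dusp6-/- (SD, n = 3 each), a log2 fold change of 0.91 ± 0.25 (SE, edgeR's adjusted p = 0.0529). The 95% interval of the fold ran from 1.28 to 2.77. Pcna was at the 89.8th percentile of log2 fold changes over all genes tested. Without Dusp6-/- replicate 1, Pcna passed both criteria with a log2 fold change of 1.06 (edgeR's adjusted p = 0.00794), in a fit in which 8.27% of all genes were called higher. DESeq2 put the adjusted p of Pcna at 0.0122 with a log2 fold change of 0.88, under the fold criterion. In that fit, 9.6% of genes were higher at an adjusted p under 0.05 alone. With no filter on low counts, edgeR gave a log2 fold change of 0.91 at an adjusted p of 0.0393, where 4.33% of genes were higher at an adjusted p under 0.05. Of 15 alternatives with an estimate of their own, these 3 put the adjusted p of Pcna under 0.05 and the other 12 did not, with a highest value of 0.186 without Dusp6-/- replicate 3. Unscaled library totals gave a log2 fold change of 0.66 (edgeR's adjusted p = 0.101), and cyclic loess gave 0.69 (limma's adjusted p = 0.114).

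Mki67, the Ki-67 gene, had the largest fold change of the 6 genes but also wide spread. Its CPM was 24.6, 31.5 and 65.8 in WT replicates 1, 2 and 3. The Dusp6-/- libraries had 59.5, 104.7 and 73.3 CPM. The groups overlapped, as WT replicate 3 was above Dusp6-/- replicate 1. The means of 40.7 ± 22.0 and 79.2 ± 23.2 CPM (SD, n = 3 each) gave a log2 fold change of 0.96 ± 0.37 (SE, edgeR's adjusted p = 0.126), with a 95% interval of the fold from 1.08 to 3.51. WT replicate 3 had 2.67 times the level of WT replicate 1, a spread larger than the difference between the genotype means. Without Dusp6-/- replicate 1, the log2 fold change was 1.08 (edgeR's adjusted p = 0.0837). Without WT replicate 3, the log2 fold change was 1.45 (edgeR's adjusted p = 0.0545), and without WT replicate 1 it was 0.66.

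Cdk1, the mitotic kinase gene, had similar TMM-scaled levels in the Dusp6-/- libraries. Its CPM was 56.0, 54.9 and 54.8 in Dusp6-/- replicates 1, 2 and 3. In the WT replicates 1, 2 and 3 it was 25.6, 35.0 and 48.5. On this scale all WT libraries were below all Dusp6-/- libraries, and WT replicate 3 was close to them. The coefficient of variation was 1.25% in Dusp6-/-, below the counting error of 3.20% to 3.83% of those libraries, and 31.6% in WT. With unscaled library totals the order did not hold. WT replicate 3 was then at 55.01 unscaled CPM, above Dusp6-/- replicates 2 and 3 at 47.9 and 48.4, and the coefficient of variation in Dusp6-/- was 9.55%. The means were 36.3 ± 11.5 CPM in WT and 55.2 ± 0.690 CPM in Dusp6-/- (SD, n = 3 each). The log2 fold change was 0.60 ± 0.24 (SE, edgeR's adjusted p = 0.135), with a 95% interval of the fold from 1.04 to 2.23. Without Dusp6-/- replicate 1 the log2 fold change was 0.55 (edgeR's adjusted p = 0.147).

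Ccnb1, the cyclin partner of that kinase, had the same order of groups on the TMM scale. WT replicates 1, 2 and 3 had 10.4, 19.2 and 23.4 CPM. The Dusp6-/- replicates had 33.6, 29.8 and 30.4 CPM. The WT range was again wide and the Dusp6-/- range narrow, with coefficients of variation of 37.6% and 6.47%. With unscaled totals WT replicate 3, at 26.6 unscaled CPM, was above Dusp6-/- replicate 2 at 26.0, and the coefficient of variation in Dusp6-/- was 14.96%. The means were 17.7 ± 6.63 CPM in WT and 31.3 ± 2.02 CPM in Dusp6-/- (SD, n = 3 each). The log2 fold change was 0.83 ± 0.29 (SE, edgeR's adjusted p = 0.102), and the 95% interval of the fold was 1.12 to 2.81. Without Dusp6-/- replicate 1 the log2 fold change was 0.73 (edgeR's adjusted p = 0.128).

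Ccna2, the S and G2 phase cyclin gene, did not separate the genotypes. WT replicates 1, 2 and 3 had 9.80, 14.1 and 19.8 CPM, against 25.1, 18.7 and 13.8 CPM in the Dusp6-/- replicates. Only Dusp6-/- replicate 1 was above every WT library. The means were 14.6 ± 5.03 CPM in WT and 19.2 ± 5.68 CPM in Dusp6-/- (SD, n = 3 each). The log2 fold change was 0.40 ± 0.32 (SE, edgeR's adjusted p = 0.431), and the 95% interval of the fold, 0.793 to 2.19, includes both no difference and a doubling. Without Dusp6-/- replicate 1 the log2 fold change was 0.11.

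Ccnd1, the G1 cyclin gene, had the smallest difference of the 6. Its CPM was 57.5, 115.3 and 60.8 in WT replicates 1, 2 and 3 and 138.7, 70.0 and 65.0 in the Dusp6-/- replicates. A single library of each genotype, WT replicate 2 and Dusp6-/- replicate 1, was high, and the other four lay between 57.5 and 70.0 CPM. The means were 77.9 ± 32.5 CPM in WT and 91.2 ± 41.2 CPM in Dusp6-/- (SD, n = 3 each). The log2 fold change was 0.23 ± 0.37 (SE, edgeR's adjusted p = 0.697), with a 95% interval of the fold from 0.660 to 2.08. Its sign rested on 1 library, since without Dusp6-/- replicate 1 the log2 fold change was -0.25 (edgeR's adjusted p = 0.564). Without WT replicate 2 it was 0.63.

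**Figure D3:**
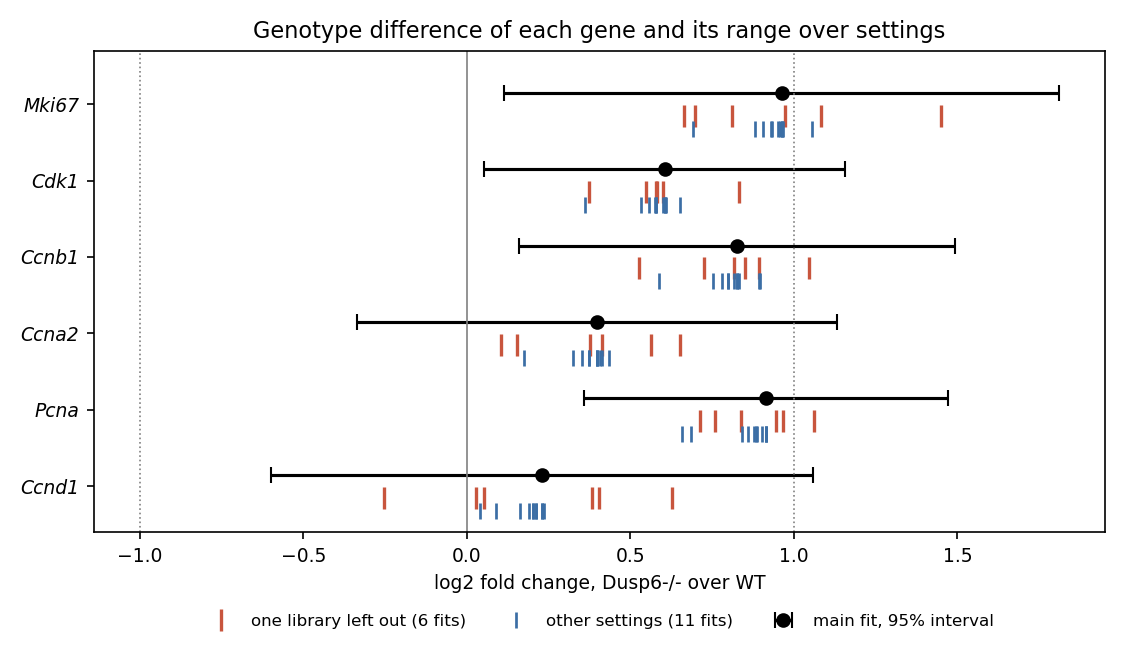
Log2 fold change of each gene, Dusp6-/- over WT, on the x axis, with the main estimate and its 95% interval (black), the 6 fits that each leave out a library (red ticks) and 11 other settings (blue ticks). Dotted lines mark the fold change criterion of 1 in either direction. The intervals are from the TMM-scaled fit and are not adjusted for the number of genes tested. Those of Mki67, Cdk1, Ccnb1 and Pcna lie above 0, and those of Ccna2 and Ccnd1 span it. None of the genes had an adjusted p under 0.05 in that fit (edgeR). The sole estimate below 0 is that of Ccnd1 at -0.25.

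On the TMM scale, WT replicate 1 was the lowest of the 6 libraries for each of the 6 genes. Its total of 15806508 counts was not the lowest. With unscaled totals it was not the lowest for Ccnd1, at 61.2 unscaled CPM against 57.5 in Dusp6-/- replicate 3. Without WT replicate 1 the log2 fold changes of Mki67, Cdk1, Ccnb1, Ccna2, Pcna and Ccnd1 were 0.66, 0.37, 0.53, 0.15, 0.76 and 0.03. Dusp6-/- replicate 1 was the highest of all libraries for Cdk1, Ccnb1, Ccna2 and Ccnd1, and replicate 2 was the highest for Mki67 and Pcna. The library that stood between the genotypes in the principal component analysis was thus not intermediate for these 4 genes. The summed CPM of the 6 genes was 223.5, 338.1 and 344.5 in WT replicates 1, 2 and 3 and 466.1, 547.8 and 464.2 in the Dusp6-/- replicates. With unscaled totals the sums were 238.1, 355.4 and 391.1 in WT and 471.0, 478.4 and 410.6 in Dusp6-/-, which brought the groups closer and lowered the log2 ratio of the means from 0.71 to 0.47. Pcna and Ccnd1 contribute most of these sums. The TMM-scaled sum of Mki67, Cdk1, Ccnb1 and Ccna2 was 70.4, 99.8 and 157.5 CPM in WT and 174.1, 208.1 and 172.3 CPM in Dusp6-/-. This sum was not computed with unscaled totals. For Cdk1 and Ccnb1 the order of libraries depended on the scaling. WT replicate 3 was above Dusp6-/- replicate 2 for these genes with unscaled totals but not on the TMM scale. For Ccna2, WT replicate 3 was above Dusp6-/- replicate 2 on both scales. For Mki67 it was above Dusp6-/- replicate 1 on both scales, at 74.7 against 60.1 unscaled CPM.

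The profiles over the libraries were compared among the 6 genes, the only ones with a name here, as a description of 6 libraries that share 2 genotypes and 1 scaling. By Pearson r on log2 CPM over 6 libraries, Cdk1 and Ccnb1 were the most alike of the 15 pairs, at 0.98. Their Spearman rho of 0.94 was equal to that of Mki67 and Pcna. Ranked by Pearson r with Cdk1, Ccnb1 was number 6 of 8083 genes whose log2 CPM averaged 3 or more, and Mki67 was number 66. After the genotype means were subtracted, the Pearson r of Cdk1 and Ccnb1 was 0.95, and Ccnb1 and Mki67 were numbers 36 and 219 in that ranking. Among the 6 genes, Pcna was most like Mki67, with a Pearson r of 0.88. Mki67 was only number 980 of the 8083 genes ranked by Pearson r with Pcna. After the genotype means were subtracted, their Pearson r was 0.71, and Mki67 was number 1797. By Pearson r, Ccnd1 was the least like the others, between -0.09 with Mki67 and 0.51 with Ccna2. Its Spearman rho ran from 0.14 with Mki67 to 0.66 with Cdk1, and the rho of Mki67 and Cdk1 was also 0.66.

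**Figure D4:**
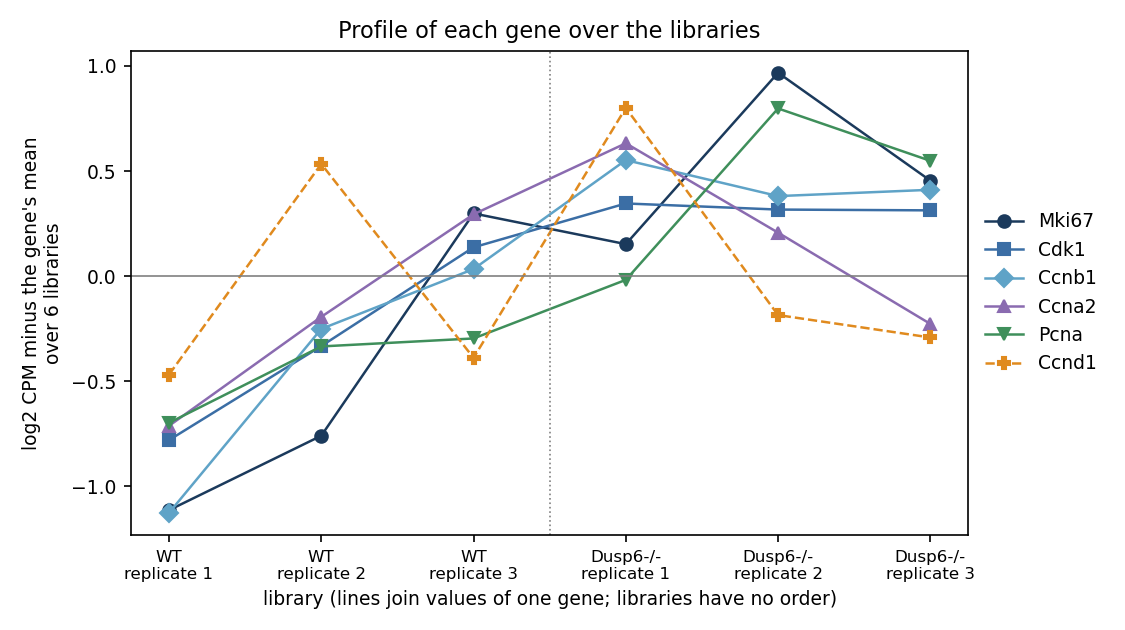
Log2 CPM of each gene minus its mean over the 6 libraries, by library on the x axis, with 1 line per gene and Ccnd1 dashed. Cdk1 and Ccnb1 run together, with the lowest value of both in WT replicate 1, while Ccnd1 peaks in WT replicate 2 and Dusp6-/- replicate 1.

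Ratios of counts within a library do not depend on the scaling, and they are given as a description, because an exact permutation test of 3 against 3 libraries cannot give a two-sided p below 0.1. In each of the 15 pairs of the 6 genes, the ratios of the genotypes overlapped. The ratio of Cdk1 to Ccnb1 was 2.46, 1.82 and 2.07 in WT replicates 1, 2 and 3 and 1.67, 1.84 and 1.80 in the Dusp6-/- replicates, a narrow band in which the groups overlap. The ratio of Pcna to Ccnd1 was 1.66, 1.07 and 2.08 in WT and 1.10, 3.85 and 3.49 in Dusp6-/-. The ratio of Mki67 to Ccna2 was 2.52, 2.24 and 3.32 in WT and 2.37, 5.61 and 5.33 in Dusp6-/-. In both of these ratios, Dusp6-/- replicates 2 and 3 were above all WT libraries and Dusp6-/- replicate 1 was within the WT range.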

How the data were processed

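RNA-seq was performed on sorted cardiac macrophages from WT and Dusp6-/- rats, with 3 libraries per genotype. Per the submitters' processing notes and the study's methods, reads were trimmed (Trim Galore), mapped to rn6 (HISAT2) and assigned to genes (featureCounts 1.5.0-p3), and the authors deposited raw counts without normalization. The annotation release, strand setting and treatment of multi-mapping reads were not given in the sources used here, so reads shared with near-identical copies or overlapping genes are uncertain. Each column was matched to its sample by name.

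The fits used edgeR 4.0.16 in R 4.3.3 (filterByExpr, TMM, quasi-likelihood test), limma 3.58.1 and DESeq2 1.42.0, and the scripts were tested on simulated data. Standard errors were derived from the F statistic. Log2 CPM has a prior count of 2. The 6 genes, the alternatives and the motifs were chosen with earlier results of these data known. The rule for naming genes took the 6 genes always and others only from lists by symbol. These lists, of other cell-cycle genes and of cell type markers, and levels per gene length, needed symbols or transcript lengths for these identifiers and were not analysed here. As a check for a library deposited more than once, pairs of libraries of a genotype were compared. Their chi-square statistic per gene was 27.6 to 154. Counting error alone gives about 1, and identical columns give less than that. Library totals ranged from 12089585 to 17274938 counts, and counting errors given cover counting alone.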

Additional observations from a re-analysis of the deposited data

How the results depend on the processing

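Of 17 alternatives for each of the 6 genes, 15 gave an estimate of their own, and the direction held in all 15 for Mki67, Cdk1, Ccnb1, Ccna2 and Pcna and in 14 for Ccnd1. Of the 6 genes, 0 were called in 16 of the 17 settings and 1, Pcna (log2 fold change 1.06), without Dusp6-/- replicate 1, where Ccnd1 changed sign to -0.25. Over the 6 fits without one library, the log2 fold change ran from 0.66 to 1.45 for Mki67, 0.37 to 0.83 for Cdk1, 0.53 to 1.05 for Ccnb1, 0.11 to 0.65 for Ccna2, 0.71 to 1.06 for Pcna and -0.25 to 0.63 for Ccnd1, and 0 to 1 of the 6 were called.

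Of all genes tested, 442 were called higher and 275 lower, so that 61.6% of the calls were higher. This share differed between the settings. In edgeR it was 57.9% with RLE normalization, another scaling (407 higher, 296 lower), and 50.2% with upper-quartile normalization (348 higher, 345 lower). With DESeq2, where the test and the filter differ as well, it was 49.4% (641 higher, 657 lower). Other alternatives were chosen after seeing the data. Cyclic loess with limma-trend gave an even split (287 higher, 287 lower), and unscaled library totals gave 29.2% (170 higher, 412 lower). No filter on low counts gave 561 higher and 422 lower, no fold change threshold gave 708 higher and 341 lower, and glmTreat gave 0 higher and 4 lower, with 623 genes at an unadjusted p under 0.05. The fits without one library gave 1 to 1083 higher and 5 to 968 lower. What caused the differences between settings was not tested. Unscaled totals moved the median log2 fold change of all genes from 0.02 to -0.21. Relative to that median, the 6 genes ranged from 0.25 for Ccnd1 to 0.90 for Mki67, against 0.21 and 0.94 with TMM.

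Replicate numbers are shared by the genotypes in the labels, without a stated pairing. Deviations of same-numbered libraries had correlations of 0.11, -0.12 and -0.16, so the numbers were not taken as pairs. With the replicate block, 0 of the 6 genes were called, and the log2 fold changes were 1.06 for Mki67, 0.65 for Cdk1, 0.89 for Ccnb1, 0.41 for Ccna2, 0.89 for Pcna and 0.21 for Ccnd1. The cell-cycle lists and the scaling of levels per length were not run.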
